A study of Mus musculus with 12 samples.

Results

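The genes described here are those of the cell cycle, of DNA replication and of histones, taken by their symbols: histone genes of the Hist clusters, Mcm, Ccna, Ccnb, Ccnd, Ccne, Cdk, E2f and Cdc genes with a number, the DNA polymerase genes Pola, Pold and Pole, and 10 genes named singly (Pcna, Mki67, Top2a, Rrm1, Rrm2, Tyms, Birc5, Lig1, Fen1 and Gins1). The rule found 99 of the 12284 named genes measured, and all 99 were tested. Polyadenylated RNA was sequenced from mouse liver in 12 libraries, 6 control (WT) and 6 double knockout (DKO). Both groups were Acly f/f; Acss2 f/f mice, which carry floxed alleles of ATP citrate lyase and of acetyl-CoA synthetase 2. At 6 to 8 weeks of age the DKO group received AAV8-TBG-Cre, a virus that drives Cre recombinase from a hepatocyte promoter, and the WT group received AAV8-TBG-GFP. All mice were moved to a Western diet 1 week later and ate it for 6 weeks. Cells other than hepatocytes are not targeted by this promoter, the groups differed in Cre and GFP as well as in the deletion, and effects of these cannot be told apart. The sources used here do not give sex or strain. They also do not say whether the libraries are of separate mice. The p-values set the difference between the groups against the spread between libraries, which may be technical.

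A cell that divides licenses its replication origins with the MCM helicase, is driven into S phase by cyclins with their kinases and the E2F factors, copies its DNA with polymerases clamped by PCNA, packs it with new histones and then separates it in mitosis. The adult liver divides little, and hepatocytes often replicate without dividing, which makes them polyploid. The messenger RNAs of histones made in S phase end in a stem-loop in place of a poly(A) tail, and these libraries were selected with poly-T beads, so the values of the Hist genes count the transcripts that such a selection retains.

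The deposited values were log2 CPM (reads scaled to the library total), and the reads behind them are unknown; back-transformed, they summed to 905964 to 1087992 CPM a library. Acly ranged from 6.56 to 9.35 log2 CPM in WT and from 4.42 to 6.60 in DKO, and stood at 17.6% of its WT level (limma adjusted p = 0.0165). Only DKO 1 reached into the WT range, just above WT 5. Acss2 ranged from 6.12 to 7.45 in WT and from 3.59 to 5.74 in DKO, without overlap, at 22.0% of WT (adjusted p = 0.00571). Alb, the albumin gene that marks hepatocytes, was at 15.14 log2 CPM or more in every library. Among the 99 genes, DKO 4 was the highest DKO library for 22 and the lowest for 7, while DKO 5 was the highest for 5 and the lowest for 22.

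Of the 99 genes, 4 rose in DKO and 0 fell: the histone H2A genes Hist2h2aa1 and Hist2h2aa2, the histone H4 gene Hist1h4h and the helicase gene Mcm6 (limma, adjusted p below 0.05 over all genes). The 4 are 4.04% of the genes described, where 1.74% of all genes changed and 0.619% rose. Of the 11 histone genes 3 rose, with the near copies of H2A counted as separate genes, and of the 88 others 1 rose, or 1.14%. At an unadjusted p below 0.05, 21 were higher and 4 lower in DKO, beside 7.95% and 8.47% of all genes. In all, 67 of the 99 were higher in DKO (67.7%) against 50.8% of all genes, and their median log2 difference (DKO minus WT) was 0.11 against 0.0041. Genes are not independent replicates, so these counts are a description and not a test.

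For the 4 genes that rose, the 250 bases before the RefSeq start (build GRCm38.p6) are shown, since 2 of them are near copies of each other and since cell cycle promoters are known for CCAAT boxes and E2F sites. Capitals mark CCAAT, the E2F sites TTTGGCGC and TTTCCCGC and the cell cycle homology region TTTGAA, each on either strand. Hist2h2aa1 is at chr3:96245247-96245496 on the plus strand, Hist2h2aa2 at chr3:96240375-96240624 on the minus strand, Hist1h4h at chr13:23530794-23531043 on the plus strand and Mcm6 at chr1:128359706-128359955 on the minus strand.
Hist2h2aa1: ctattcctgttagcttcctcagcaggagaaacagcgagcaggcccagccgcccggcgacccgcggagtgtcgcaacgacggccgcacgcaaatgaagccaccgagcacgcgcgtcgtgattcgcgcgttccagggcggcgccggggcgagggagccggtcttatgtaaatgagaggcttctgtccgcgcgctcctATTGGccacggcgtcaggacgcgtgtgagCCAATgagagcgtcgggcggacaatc
Hist2h2aa2: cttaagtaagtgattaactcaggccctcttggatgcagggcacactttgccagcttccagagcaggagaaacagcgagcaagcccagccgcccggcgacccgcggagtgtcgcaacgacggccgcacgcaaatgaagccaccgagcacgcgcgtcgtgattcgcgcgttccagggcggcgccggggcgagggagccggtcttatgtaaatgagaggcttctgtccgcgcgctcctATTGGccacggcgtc
Hist1h4h: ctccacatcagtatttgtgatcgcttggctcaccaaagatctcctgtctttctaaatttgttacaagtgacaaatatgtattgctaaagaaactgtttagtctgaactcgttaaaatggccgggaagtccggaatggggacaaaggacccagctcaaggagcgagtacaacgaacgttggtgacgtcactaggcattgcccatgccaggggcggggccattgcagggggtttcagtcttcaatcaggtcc
Mcm6: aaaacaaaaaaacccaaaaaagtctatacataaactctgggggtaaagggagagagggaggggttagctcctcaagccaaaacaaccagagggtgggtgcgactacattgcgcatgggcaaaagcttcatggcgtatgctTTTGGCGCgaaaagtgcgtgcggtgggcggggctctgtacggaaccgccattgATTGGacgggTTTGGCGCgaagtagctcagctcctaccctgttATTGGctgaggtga

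With the H2A pair shifted by 40 bases against each other, 199 of 210 bases before their starts were identical, and the longest reading frames of their GENCODE vM21 transcripts, 393 bases each, differed at 0 positions. All 498 of the 31-base words of the Hist2h2aa2 transcript also occur in that of Hist2h2aa1, where they make up 89.6% of its words, and every word of both also occurs in the gene models Gm20633 and Gm20632, respectively, so the division of reads between them is uncertain. The transcript of Hist1h4h shares 220 of its 440 such words with other genes, most of them with Hist1h4j, another H4 gene, whereas those of Mcm6 share 1.35%. The Mcm6 stretch holds 2 of the E2F sites and 2 CCAAT boxes, that of Hist2h2aa1 has 2 CCAAT boxes, that of Hist2h2aa2 has 1, and that of Hist1h4h holds none of these letters. The box nearest the start of Hist2h2aa1 lies in its last 40 bases, past the end of the shifted Hist2h2aa2 stretch, so the copies are not compared there. One of the E2F sites was in 10 of 100 windows, which belong to 83 of the genes described, and in 1.3% of all 32851 RefSeq windows. CCAAT was in 46 of the 100 and in 33.8% of all, TTTGAA was in 21 and in 5252 of all, and 0 of the matches to different motifs overlapped. The 9 genes with an E2F site were Cdc25a, Cdk2, E2f3, E2f7, Mcm5, Mcm6, Mcm7, Pola1 and Pole4, with a median log2 difference of 0.20 and 6 higher in DKO. The other 74 had a median of 0.13 with 48 higher. For CCAAT the 44 genes with it had a median of 0.099 with 27 higher, and the 39 without it 0.14 with 27 higher. For TTTGAA the 20 genes with it had a median of 0.22 with 13 higher, and the 63 without it 0.10 with 41 higher. These splits were not tested.

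Of the roles described, histones had the largest share of genes that rose, 27.3%, with the H2A copies counted as separate genes. Hist2h2aa1, which encodes a core histone H2A, stood at 5.84, 5.57, 4.87, 5.44, 5.91 and 6.13 log2 CPM in WT 1 to WT 6 and at 6.90, 6.48, 6.76, 6.78, 6.59 and 6.35 in DKO 1 to DKO 6. Every DKO library lay above every WT library. The gene rose 2.02-fold (log2 difference 1.01, SE 0.18, limma adjusted p = 0.0136). Hist2h2aa2, its copy, stood at 3.23, 3.92, 4.16, 3.69, 3.74 and 3.60 log2 CPM in WT and at 5.20, 4.48, 4.85, 5.23, 4.75 and 4.75 in DKO. These groups did not overlap either, and the gene rose 2.23-fold (log2 difference 1.15, SE 0.16, adjusted p = 0.00334). Summed as CPM, which sets aside how reads were divided between these copies but not with the other gene models, the pair stood at 5.99 ± 0.28 log2 CPM in WT and 7.02 ± 0.21 in DKO (mean ± SD, n = 6) and rose 2.03-fold (limma adjusted p = 0.00197). Both genes were called with any 1 of the 12 libraries left out and in every other alternative that kept them apart.

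Hist1h4h, a histone H4 gene, stood at 0.40, 0.66, -0.15, 0.61, 0.84 and 0.58 log2 CPM in WT and at 3.08, 0.83, 2.95, 3.81, 1.96 and 2.06 in DKO. The WT libraries lay close together and the DKO libraries were spread, with DKO 2 inside the WT range and the other 5 above it. The gene rose 3.88-fold (log2 difference 1.96, SE 0.41, limma adjusted p = 0.0286). It lost its call without WT 2, WT 3, WT 4, WT 5, WT 6, DKO 1, DKO 3 or DKO 4 (adjusted p up to 0.0655) and with quantile normalization (0.0549). Hist1h4i, the other H4 gene of the 11, had a log2 difference of 0.49 (SE 0.35, adjusted p = 0.534).

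The linker histones Hist1h1d and Hist1h1c, which bind the DNA between nucleosomes, were higher in DKO without passing the test. Hist1h1d (histone H1.3) ranged from -1.17 to 0.14 log2 CPM in WT (median -0.37) and from 0.26 to 1.90 in DKO (median 0.52). Its groups did not overlap, yet its log2 difference of 1.23 (SE 0.35) had an adjusted p of 0.0901. Hist1h1c (histone H1.2) ranged from 5.57 to 6.54 in WT and from 5.90 to 7.27 in DKO (log2 difference 0.59, SE 0.20, adjusted p = 0.155). H1f0, a linker histone gene outside the Hist clusters, had a mean of 7.01 log2 CPM in WT and 7.08 in DKO. Its log2 difference was 0.07 (95% interval -0.22 to 0.35, limma adjusted p = 0.851). The H2B genes Hist1h2bc and Hist2h2be had log2 differences of 0.29 (95% interval 0.02 to 0.56) and 0.06 (-0.45 to 0.57).

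The Hist2h3c copies, which encode histone H3, share sequence and could not be read singly. Hist2h3c1 stood between 1.87 and 3.27 log2 CPM in 5 WT libraries and between 2.0 and 2.73 in 3 DKO libraries. It was at the lowest value of the table, -3.26, in WT 6, DKO 5 and DKO 6 and at -3.16 in DKO 1. Its copy Hist2h3c2 had no such values, and 64.2% of that copy's 31-base words also occur in Hist2h3c1. Summed, the pair had a log2 difference of -0.38 (SE 0.54, adjusted p = 0.783). The sum does not set aside the gene model Gm20634, which holds every such word of Hist2h3c1 and 64.2% of those of Hist2h3c2. Of the 11 histone genes 9 were higher in DKO, with a median log2 difference of 0.54, and the remaining lower gene was Hist3h2a, a histone H2A (-0.24, SE 0.17, adjusted p = 0.527). The 5 genes on chromosome 3 hold the pair that rose beside Hist2h2be, whose adjusted p was 0.935, and the Hist2h3c copies.

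**Figure D1:**
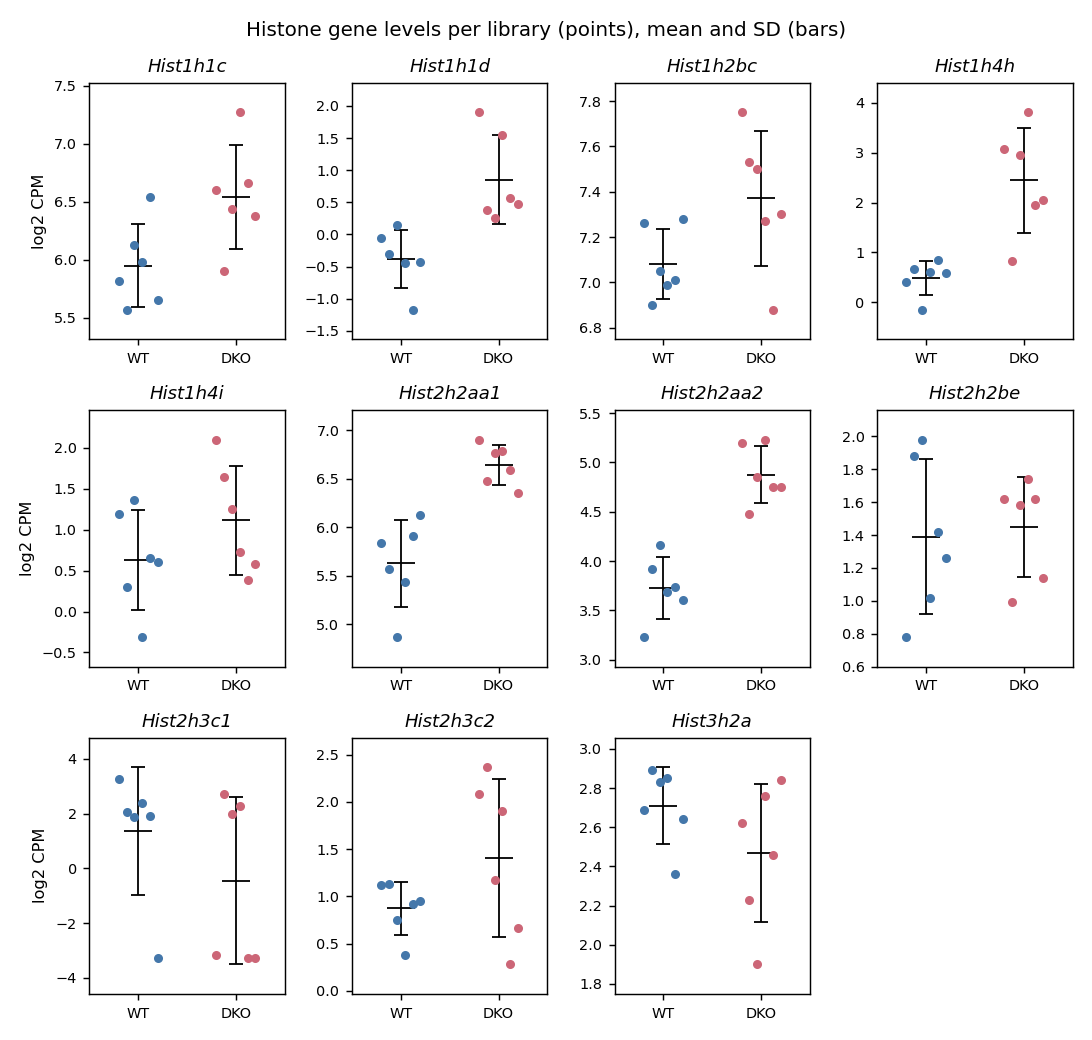
Levels of the 11 histone genes in log2 CPM (y axis, scaled for each gene) in the 6 WT (blue) and 6 DKO (red) libraries; points are libraries and bars the mean and SD. The groups are apart for Hist2h2aa1, Hist2h2aa2 and Hist1h1d, and Hist2h3c1 is split between about 2 and the lowest value of the table in both groups.

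**Figure D2:**
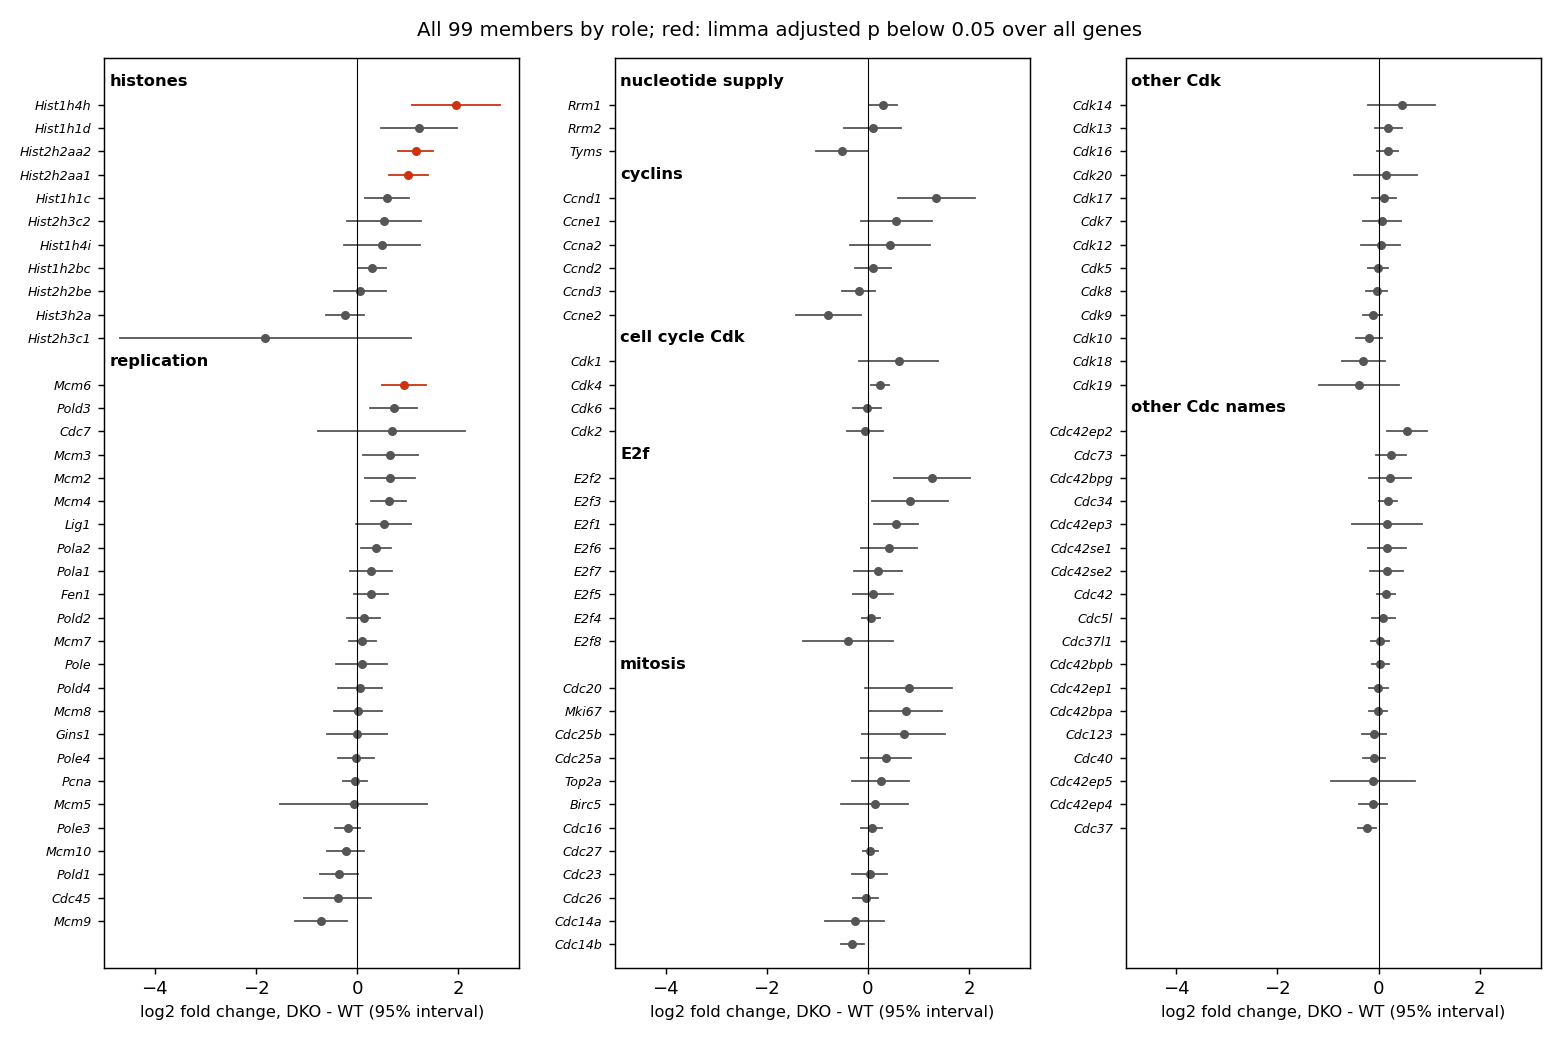
Log2 fold change (DKO minus WT) of all 99 genes with its 95% interval from limma (x axis), grouped by role; red marks an adjusted p below 0.05 over all genes. The 4 red genes lie to the right of 0, and the other Cdk and Cdc genes of the third panel lie between -0.38 and 0.57.

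Among 24 genes of origin licensing and the replication fork, Mcm6 rose and 0 fell. Mcm6, a subunit of the helicase that unwinds DNA ahead of the fork, stood at 2.61, 1.89, 1.76, 1.48, 1.99 and 1.77 log2 CPM in WT and at 2.90, 3.02, 3.14, 3.13, 2.45 and 2.40 in DKO. WT 1 lay inside the DKO range and the other 5 WT libraries below it. The gene rose 1.90-fold (log2 difference 0.92, SE 0.20, limma adjusted p = 0.0372). Its call was lost without WT 2, WT 3, WT 4, WT 5, WT 6, DKO 1, DKO 2, DKO 3 or DKO 4 (adjusted p up to 0.092) and with quantile normalization (0.0703).

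The other subunits of the same ring of 6 proteins were not called with all 12 libraries and the mean trend. Mcm4 ranged from 1.49 to 2.0 log2 CPM in WT and from 2.02 to 2.59 in DKO, with no overlap, and had a log2 difference of 0.63 (SE 0.16, limma adjusted p = 0.0666; 0.0491 without WT 1 and 0.0467 without the mean trend). Mcm2 and Mcm3 had log2 differences of 0.65 (SE 0.23) and 0.66 (SE 0.26), with all 6 DKO libraries above the WT mean and adjusted p of 0.167 and 0.211. Mcm7, the subunit with the narrowest interval, differed by 0.10 (95% interval -0.17 to 0.37). Mcm5 was at the lowest value in DKO 3 and between 0.51 and 1.52 in the other 5 DKO libraries, against -0.46 to 1.01 in WT, and its log2 difference of -0.07 (SE 0.68) was 0.63 (SE 0.34, adjusted p = 0.405) without DKO 3. Over the 6 subunits the median log2 difference was 0.64 and 4 had an unadjusted p below 0.05.

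Mcm10, a replication initiation factor, differed by -0.23 (SE 0.17, adjusted p = 0.546). Mcm9, a helicase of DNA repair outside the ring, was below the WT mean in all 6 DKO libraries (log2 difference -0.71, SE 0.24, adjusted p = 0.150). Cdc45, which joins the helicase to the fork together with the GINS complex, had a log2 difference of -0.38 (SE 0.31), and Gins1, a GINS subunit, of 0.0012 (SE 0.28). Cdc7, the kinase that activates the helicase, was at the lowest value in WT 6 and between -2.39 and 1.06 in the other libraries, with a log2 difference of 0.68 (SE 0.68).

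Pcna, the sliding clamp, ranged from 4.30 to 4.77 log2 CPM in WT and from 4.24 to 4.76 in DKO. The ranges nearly coincide, and the 95% interval of its difference ran from -0.29 to 0.20. Of the 9 polymerase genes 0 were called by limma and 2 had an unadjusted p below 0.05, Pold3 and Pola2. Pold3, an accessory subunit of polymerase delta, ranged from 1.75 to 2.98 in WT and from 2.97 to 3.81 in DKO (log2 difference 0.72, SE 0.22, adjusted p = 0.107), and Pold1, the catalytic subunit of that enzyme, was lower in DKO (-0.36, SE 0.18, adjusted p = 0.330). Pola2, of the polymerase that primes synthesis, differed by 0.37 (SE 0.13, adjusted p = 0.174). Lig1 and Fen1, the ligase and the flap nuclease that join the lagging strand, had log2 differences of 0.52 (SE 0.25) and 0.27 (SE 0.16) with adjusted p of 0.318 and 0.422. Fen1 shares 79.6% of its 31-base words with other genes, most of them with Gm10143.

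The enzymes that supply nucleotides differed in direction. Rrm1 and Rrm2, the subunits of ribonucleotide reductase, had log2 differences of 0.30 (SE 0.13, adjusted p = 0.270) and 0.09 (SE 0.26, adjusted p = 0.902). Tyms, thymidylate synthase, had a log2 difference of -0.52 (95% interval -1.03 to 0.00068, adjusted p = 0.305). Beside it Tk1, the thymidine kinase of the salvage route and not one of the 99, was below the WT mean in all 6 DKO libraries, at 59.5% of its mean, with an adjusted p of 0.0577 (log2 difference -0.75, SE 0.18). It was called lower without WT 1 (0.0114), without DKO 6 (0.0373) and with array weights (0.0235). With all 12 libraries equally weighted and no block limma called 0 of these, and 1 of the 3 members, Rrm1, had an unadjusted p below 0.05.

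**Figure D3:**
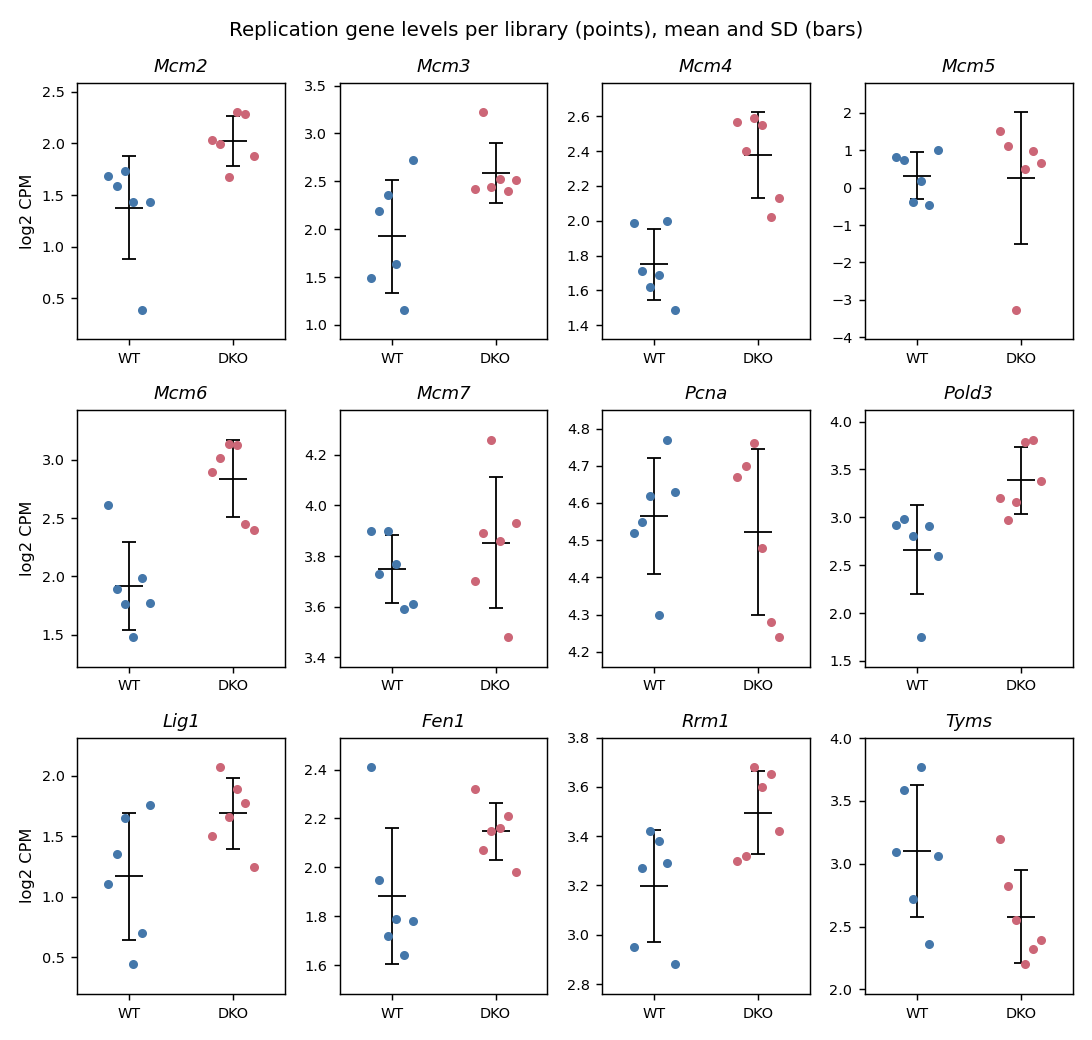
Levels of 12 replication and nucleotide genes in log2 CPM (y axis, scaled for each gene) in the 6 WT (blue) and 6 DKO (red) libraries; points are libraries and bars the mean and SD. Mcm4 is apart between the groups. Mcm6 and Fen1 overlap through WT 1 only, Mcm3 through WT 6 only and Pold3 through WT 2 only. Pcna shows nearly the same range in both.

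Of 6 cyclins 0 were called by limma, with 1 higher and 1 lower at an unadjusted p below 0.05. Ccnd1, the cyclin D1 that acts in the G1 phase, stood at 4.44, 3.26, 3.19, 4.30, 2.96 and 3.36 log2 CPM in WT and at 5.78, 5.97, 4.51, 5.07, 4.20 and 4.11 in DKO. WT 1 and WT 4 lay inside the DKO range and the other 4 WT libraries below it. Its log2 difference was 1.35 (SE 0.36, 2.55-fold) with an adjusted p of 0.0728 and was called without WT 1 (0.0389) or without DKO 6 (0.0447). Ccnd2 and Ccnd3, the other D cyclins, differed by 0.11 and -0.19. The E cyclins, which act at entry to S phase, lay on opposite sides: Ccne1 had a log2 difference of 0.56 (SE 0.33, adjusted p = 0.421) and Ccne2 of -0.79 (SE 0.30, adjusted p = 0.201), with all 6 DKO libraries below the WT mean of Ccne2. Ccna2, cyclin A2 of S phase and mitosis, differed by 0.44 (95% interval -0.35 to 1.24).

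Of the kinases these cyclins bind, Cdk4, the partner of the D cyclins, was above the WT mean in all 6 DKO libraries with a log2 difference of 0.24 (SE 0.09, adjusted p = 0.176). Cdk6, its relative, and Cdk2, the partner of the E cyclins, differed by -0.02 and -0.05, and Cdk1, the kinase of mitosis, by 0.61 (SE 0.36, adjusted p = 0.435). Limma called 0 of these 4, and 1 had an unadjusted p below 0.05.

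Of the 8 E2F genes 7 were higher in DKO, with a median log2 difference of 0.31, 3 at an unadjusted p below 0.05 and 0 called by limma. These 3 were E2f1, E2f2 and E2f3, known as the activators. E2f2 stood at 2.09, 0.24, 0.35, 0.69, 0.01 and 0.19 log2 CPM in WT and at 2.0, 1.25, 1.87, 2.30, 1.27 and 2.46 in DKO. WT 1 was inside the DKO range, and the other 5 WT libraries were below it. The log2 difference was 1.26 (SE 0.35) with an adjusted p of 0.0863, and without WT 1 it was 1.56 with an adjusted p of 0.00955. With array weights it was 1.41, and limma called it (adjusted p = 0.0293). E2f1 and E2f3 had log2 differences of 0.55 (SE 0.20, adjusted p = 0.179) and 0.84 (SE 0.35, adjusted p = 0.247). E2f7 and E2f8, the repressors that promote polyploidy in hepatocytes, differed by 0.20 and -0.40 (SE 0.22 and 0.41), and E2f4, a repressor of resting cells, by 0.06 (95% interval -0.12 to 0.24).

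Among 12 genes of mitosis 0 were called by limma, with 1 higher and 1 lower at an unadjusted p below 0.05. Mki67, which encodes the Ki-67 antigen of cycling cells, stood at 2.31, 1.12, 1.17, 1.20, 1.26 and 0.78 log2 CPM in WT and at 3.12, 2.46, 2.01, 2.23, 1.46 and 1.04 in DKO. The libraries WT 1 and DKO 1 were the highest of their groups. The log2 difference was 0.75 (SE 0.34, adjusted p = 0.288), with a 95% interval of 0.02 to 1.47. Top2a, the topoisomerase that untangles chromosomes, was also highest in these libraries, at 2.32 and 2.11, and had a log2 difference of 0.25 (SE 0.26, adjusted p = 0.684). Birc5, survivin, differed by 0.13 (SE 0.31) and Cdc20, the activator of the anaphase-promoting complex, by 0.80 (SE 0.40, adjusted p = 0.337). The 4 genes Cdc16, Cdc23, Cdc26 and Cdc27 of that complex had log2 differences with a median of 0.04. Cdc14b, a phosphatase, was the lower gene with an unadjusted p below 0.05 (-0.31, SE 0.11, adjusted p = 0.160).

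**Figure D4:**
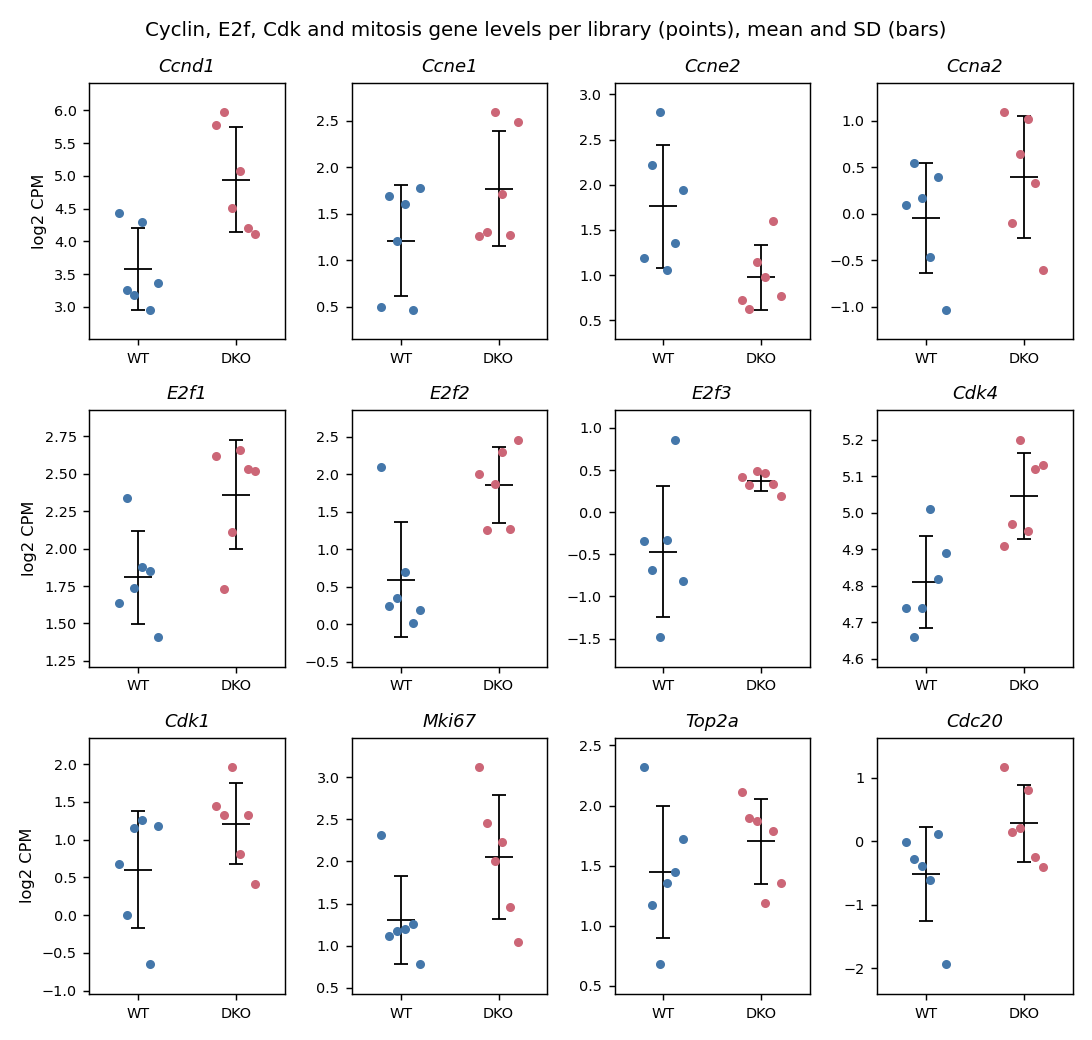
Levels of 12 cyclin, E2f, Cdk and mitosis genes in log2 CPM (y axis, scaled for each gene) in the 6 WT (blue) and 6 DKO (red) libraries; points are libraries and bars the mean and SD. The groups overlap for each of these genes. The overlap is through 1 WT library only for E2f2 (WT 1 at 2.09), E2f3 (WT 5 at 0.86) and Cdk4 (WT 4 at 5.01).

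The symbol patterns also took genes that do not drive division. Of 13 other Cdk genes, among them Cdk7, Cdk8, Cdk9, Cdk12 and Cdk13 of transcription and Cdk5 of neurons, 0 were called by limma and 0 had an unadjusted p below 0.05, and their log2 differences ran from -0.38 (Cdk19) to 0.46 (Cdk14) around a median of 0.04. Of 18 Cdc genes named outside the other groups, 11 of them for the small GTPase Cdc42, 0 were called, with a median of 0.06, and 2 were higher and 1 lower at an unadjusted p below 0.05. The largest difference was that of Cdc42ep2, an effector of Cdc42 (0.57, SE 0.19, adjusted p = 0.135), and the lower gene was Cdc37, a co-chaperone of kinases (-0.23, SE 0.08, adjusted p = 0.178).

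The rest of the pathway was described from 4 further lists. In these limma, fitted with the mean trend and without a block to all 12 libraries equally weighted, called 0 genes in either direction. Of 47 other replication genes, 32 were higher, 5 higher and 1 lower at an unadjusted p below 0.05, and the median log2 difference was 0.08. The smallest p was that of Tk1. Slbp, the protein that binds the stem-loop of histone messenger RNAs, named after its value was seen, ranged from 3.29 to 3.83 in WT and from 3.83 to 4.18 in DKO, with no overlap (log2 difference 0.39, SE 0.11, adjusted p = 0.0968). Of 37 other mitosis genes 26 were higher, 0 higher and 1 lower at an unadjusted p below 0.05, with a median of 0.18. The lower gene was Ccnf, cyclin F (-0.30, SE 0.14, adjusted p = 0.290).

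Of 20 inhibitors and checkpoint genes 13 were higher, 2 of them at an unadjusted p below 0.05, with Trp53, the gene of p53, closest to the threshold (0.31, SE 0.09, adjusted p = 0.0864). Of 10 other histone genes 5 were higher and 5 lower. H2afx, the H2A variant of DNA damage foci, ranged from 2.87 to 3.59 in WT and from 3.62 to 4.15 in DKO, and its log2 difference of 0.51 (SE 0.14) had an adjusted p of 0.0844. It was the only one of these 10 with an unadjusted p below 0.05.

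By groups that do not overlap, 4 of the 99 genes were higher in DKO, Hist2h2aa1, Hist2h2aa2, Hist1h1d and Mcm4, beside 0.790% of all genes (2.17% in either direction), and 0 were lower. Their 2-sided exact permutation p of 0.00216 is the smallest that divisions of 12 libraries into 6 and 6 can give, and adjusted over all genes it is 0.09996, so this test could call none. Hist1h4h and Mcm6 had exact p of 0.00433 and 0.00649.

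Markers of other cells moved with these results, and their part in them was not tested. In bulk tissue, more cells of a type and more RNA per cell cannot be told apart. Of 23 macrophage markers 21 were higher in DKO, 18 at an unadjusted p below 0.05, and 3 rose, and their summed level was 595.1 to 992.3 CPM in WT and 683 to 1133 in DKO. Those that rose were Gpnmb, a gene of lipid-laden macrophages (-3.26 to -0.37 log2 CPM in WT, 1.17 to 3.45 in DKO, limma adjusted p = 0.00085), the monocyte receptor gene Ccr2 (-0.65 to 0.78 and 0.91 to 2.15, adjusted p = 0.0244) and the lysozyme gene Lyz2 (5.06 to 6.07 and 5.82 to 6.99, adjusted p = 0.0357). Of the defining macrophage markers, Clec4f and Csf1r were at least 5.46 log2 CPM in every library, and Adgre1 was not analysed here. Cd79a of B cells was at most 0.58 log2 CPM and Krt19 of cholangiocytes at most 1.5. Cd3e and Ms4a1 of lymphocytes, S100a8 and S100a9 of neutrophils and Epcam of cholangiocytes, also defining markers, were not analysed either. Of 14 stellate cell markers 13 and of 15 endothelial markers 15 were higher with 0 called by limma (8 and 7 at an unadjusted p below 0.05), with sums of 304 to 415.5 and 450 to 531.8 CPM in WT and of 396.3 to 550.5 and 485.7 to 637.3 in DKO. Of 18 lymphocyte markers listed, 6 were analysed. Of these 4 were higher and 1 rose, with sums of 9.10 to 13.6 CPM in WT and 10.9 to 136.1 in DKO. It was Ighm, the heavy chain gene of IgM, at 2.15 to 2.62 log2 CPM in WT and 2.87 to 7.01 in DKO (4.66-fold, limma adjusted p = 0.0453). Its DKO mean was 4.57 log2 CPM against at most 0.76 for the others, so the DKO sum mostly counts Ighm. Cd3d and Cd4 of T cells were lower (log2 differences -0.28 and -0.35), and Ighd, Cd79a and Cd79b differed by 0.04, 0.24 and 0.56. For the 2 neutrophil markers analysed of 10 listed, both higher, the sums were 2.06 to 5.36 and 3.82 to 7.68 CPM. Of 8 cholangiocyte markers 6 were higher and 2 rose (40.95 to 53.45 and 54.31 to 86.11 CPM). They were Spp1 (1.83-fold, limma adjusted p = 0.0213) and Cd24a (1.93-fold, adjusted p = 0.0357), neither with overlap of the groups. All 5 red cell markers were higher with 0 called by limma and 1 at an unadjusted p below 0.05 (342.6 to 726.8 and 569.7 to 1396 CPM). Hepatocyte markers were lower for 13 of 19 genes, 7 at an unadjusted p below 0.05, and 2 fell, Serpina1c (log2 difference -0.55, SE 0.11, limma adjusted p = 0.0282) and Asgr1 (-0.35, SE 0.08, adjusted p = 0.0452). The 19 summed to 111400 to 130700 CPM in WT and 97430 to 133400 in DKO.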

How the data were processed

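Liver RNA was measured in 12 libraries, 6 WT and 6 DKO by the genotype label. The authors deposited log2 CPM, filtered and normalized between libraries, as its name says; no source used here gives the filter, the normalization or any added count. Tools named in the submitters' processing notes, without roles, were kallisto 0.46.2, limma and edgeR, and the build was GRCm39. Of 12285 rows, 1 without a name (0.0075% to 0.0148% of a library) was left out. The lowest value was -3.26 log2 CPM, and 3 of the 99 genes had it in 1 or more libraries. Depth is unknown, and levels are not per length, so they are not compared between genes.

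The groups were compared in R 4.3.3 by limma 3.58.1 (lmFit, eBayes with the mean trend, 2-sided, no filter, covariate or further pseudocount), adjusted by Benjamini-Hochberg over 12284 genes; the fit was tested on simulated data. Intervals are limma's 95% intervals. The members and lists were chosen with earlier results of these data known. Named are all called members, the 2 largest changes each way and the highest level of each role, a fixed set, Acly and Acss2, and of each other pathway list the called genes or the smallest p. Called marker genes are named too, and others that serve the account of a role were picked with values in view. Transcripts (GENCODE vM21) and promoters (RefSeq, GRCm38.p6) were of another build than the notes name. All 99 genes matched, 83 with a promoter window. Histone symbols were matched through RefSeq synonyms. Alternatives were other variance models, log2(CPM + 1), filters, scalings, array weights, the replicate block and each library left out. Figures were drawn with matplotlib 3.10.9.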

Additional observations from a re-analysis of the deposited data

Results flagged for a closer look

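Among 108 groups of 6 libraries (54 named genes), 12 had a library far from the other 5, its gap to the nearest, as a share of the range, exceeding the 95% critical value of Dixon; chance alone gives about 1 in 20 groups. Birc5 was lowest in DKO 5, at 0.19 log2 CPM, with the other 5 libraries from 1.46 to 2.12. Cdc14a was highest in WT 3, at 1.79 log2 CPM, with the other 5 libraries from 0.58 to 0.95. Cdc20 was lowest in WT 6, at -1.94 log2 CPM, with the other 5 libraries from -0.61 to 0.11. Cdc45 was lowest in WT 4, at -0.41 log2 CPM, with the other 5 libraries from 0.57 to 1.01. Cdk13 was highest in DKO 4, at 4.76 log2 CPM, with the other 5 libraries from 4.34 to 4.49. Cdk19 was lowest in DKO 1, at 1.04 log2 CPM, with the other 5 libraries from 2.97 to 3.65. E2f2 was highest in WT 1, at 2.09 log2 CPM, with the other 5 libraries from 0.01 to 0.69. Hist2h3c1 was lowest in WT 6, at -3.26 log2 CPM, with the other 5 libraries from 1.87 to 3.27. Mcm2 was lowest in WT 5, at 0.39 log2 CPM, with the other 5 libraries from 1.43 to 1.73. Mki67 was highest in WT 1, at 2.31 log2 CPM, with the other 5 libraries from 0.78 to 1.26. Pold3 was lowest in WT 4, at 1.75 log2 CPM, with the other 5 libraries from 2.60 to 2.98. Acss2 was highest in WT 1, at 7.45 log2 CPM, with the other 5 libraries from 6.12 to 6.50. WT 1 accounts for 3 of the 12, as the highest library of its group for E2f2, Mki67 and Acss2.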

How the results depend on the processing

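The number of the 99 genes called (4) was 2 with quantile normalization and 2 with a filter at a mean of 3 log2 CPM, which removes Hist1h4h and Mcm6; calls in every alternative were higher in DKO. The number of all genes called (214) was 138 without the mean trend, 109 with quantile normalization, 356 with array weights and 397 with the replicate block. With 1 library left out these numbers were 2 to 7 and 92 to 373. They were 7 and 373 without WT 1, and 2 and at most 124 without WT 2, WT 3, WT 4, WT 5, WT 6, DKO 1, DKO 3 or DKO 4. The median log2 fold change of the 99 genes was 0.047 with the filter at 3 log2 CPM, and 0.08 to 0.16 with 1 library left out. Hist2h2aa1 and Hist2h2aa2 were called in all 22 alternative fits that kept them apart (adjusted p up to 0.0381 and 0.0116), Hist1h4h and Mcm6 in 11 of 21 each. With the Hist2h2aa and Hist2h3c copies each summed, 3 of 97 genes were called, the H2A pair, Hist1h4h and Mcm6, beside 1.73% of all genes. Without replicate 1 of both groups, the libraries with the highest Mki67 and Top2a of their groups, chosen after seeing the data, Hist1h4h was not called (adjusted p = 0.0704) and E2f2 was (0.0204).

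Signs turned for small differences. Gins1 became -0.0083 with log2(CPM + 1), -0.020 with library medians subtracted, -0.11 with quantile normalization and -0.10 without replicate 1 of both groups. With array weights Birc5 became -0.060 and Cdk6 0.048. With 1 library left out Gins1 ran from -0.17 to 0.12, Cdk6 from -0.10 to 0.054, Cdk2 from -0.14 to 0.023, Rrm2 from -0.12 to 0.24 and Pcna from -0.10 to 0.013. The cause of these shifts was not tested.

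Libraries share the numbers 1 to 6 between the groups. Same-numbered libraries correlated in their deviations at -0.08 to 0.29, over 0.1 in 2 of 6 pairs. Of the 6 libraries of each group, 4 WT and 3 DKO libraries correlated best with their own number. The sources used here do not say what the number marks, so the main fit has no block. Whether the numbers mark pairs was not tested. The replicate block raised the number of all genes called from 214 to 397. With the replicate block 5 of the 99 genes were called, the 4 and Ccnd1, and Tk1, outside the 99, was called lower (adjusted p = 0.00435). Tk1 was also called without replicate 1 of both groups (0.0116). Low levels limit Cdc7 and Mcm5, which reach the lowest value of the table. Hist2h3c1 reaches it too, but it stood as high as 3.27 log2 CPM in other libraries.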
